A study of Oryctolagus cuniculus with 39 samples.

Results

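The stromal vascular fraction of interscapular brown adipose tissue (iBAT SVF) was compared between rabbits aged 3 weeks and rabbits aged 1 day by bulk RNA-seq, with 3 libraries at each age. The stromal vascular fraction is what remains of a fat depot once the fat cells have been taken away. It holds fibroblast-like progenitors of fat cells, vessel and nerve sheath cells, and immune and blood cells. The comparison used 6 of the 39 labelled samples of a study of brown fat involution in New Zealand White rabbits. The others were 12 libraries of whole interscapular tissue, the later ages of the same fraction, the stromal fraction of subscapular brown fat (sBAT SVF) and 3 single-cell samples. No allele, drug or diet is named in the labels, and the groups are labelled by age: day 1 and 3 weeks. The labels do not say whether animals were pooled or whether the libraries of an age came from separate animals. The p-values therefore measure only the spread between libraries, which may be technical. For the main comparison that spread was taken from all 12 iBAT SVF libraries, the later ages included.

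Genes were kept where the scaled FPKM was at least 1 in at least 3 of the 6 libraries, which left 11865 of 20589 gene identifiers (57.6%). FPKM is the number of fragments per kilobase of transcript and per unit of mapped fragments in the library. "Scaled" means divided by a median ratio factor that brings the typical gene to the same level in every library. These factors lay between 0.951 and 1.16 in the 6 libraries. A gene was called risen or fallen where limma on log2(scaled FPKM + 1) gave a Benjamini-Hochberg adjusted p under 0.05 over all genes tested. Fold changes quoted as "log2" are on that scale, with the standard error (SE) of the fit, and understate the change of low genes. Fold ratios are ratios of mean scaled FPKM.

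Brown adipose tissue makes heat by burning fatty acids in mitochondria that UCP1 uncouples from ATP production. Newborn rabbits carry large interscapular pads of it, and the pads turn into a white-like store of fat within weeks of birth. The stroma supplies the new fat cells, lays down the matrix around them and carries the vessels and sympathetic nerves that switch heat production on.

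The deposited FPKM of the 6 libraries summed to between 407523 and 485989, and 15810.0 to 17799 genes were above 0. Read depth is not given by the tables, and the relative depths could not be recovered reliably from the low values. Pearson's r between replicates, taken over genes, was 0.949 to 0.964 at day 1 and 0.97 to 0.983 at 3 weeks, where genes are not independent replicates. Along the first principal component, with 57.5% of the variance, the day 1 libraries (-37 to -25.6) stood apart from the 3 weeks libraries (31.6 to 33.3). The second, with 17.5%, spread the day 1 libraries, with replicate 2 at 29.6 and replicate 3 at -26. The gene pair ADORA1 and LOC100009266 took 1.93% to 20.3% of the FPKM in the 6 libraries, the most in 3 weeks replicate 3. Neither was called, and the ages overlapped for both.

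Of the 11865 genes, 3575 (30.1%) were called between the ages, 1794 (15.1%) higher and 1781 (15%) lower at 3 weeks. The 3 values of each age did not overlap for 5598 genes (47.2%). Over all 11865 genes the median log2 change was 0.01. On the deposited FPKM without scaling it was -0.14, and 1136 genes were higher and 2419 lower, so that 32.0% of the calls were rises against 50.2% after scaling. Without day 1 replicate 1 the count was 2284, and it was 2389 to 2992 without any other single library. In bulk RNA, fewer cells of a type and less RNA per cell cannot be told apart, and this holds for every cell type marker below.

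**Figure D1:**
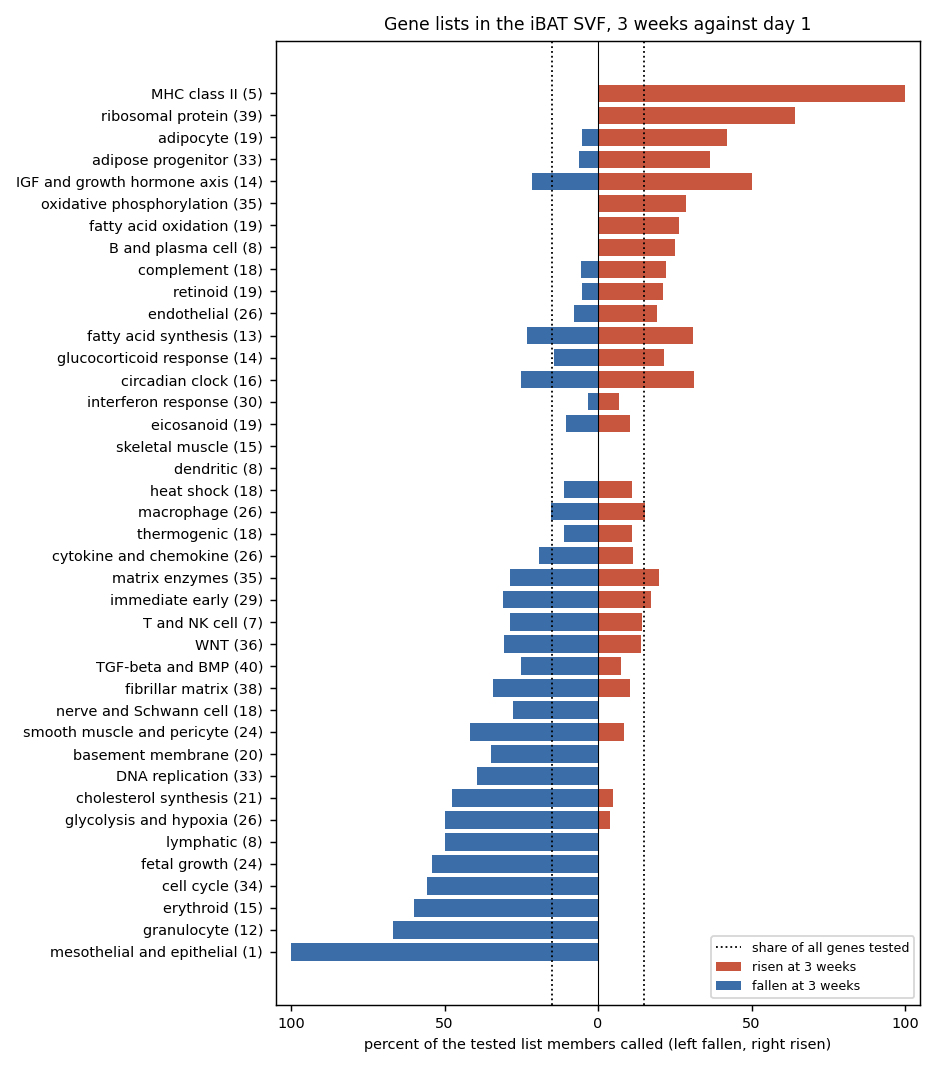
Percent of the tested members of each gene list that fell (left) or rose (right) between day 1 and 3 weeks in the interscapular fraction, with the number of members tested in parentheses. The dotted lines mark the share of all genes tested, 15% lower and 15.1% higher. All 5 MHC class II genes rose and 25 of 39 ribosomal protein genes rose, while cell cycle, erythroid and granulocyte genes moved only downward.

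Among the largest falls were those of ACTG2, TNC and AGTR2, and among the largest rises those of ALDH1A1 and ITGBL1. ACTG2, a smooth muscle actin, had a scaled FPKM of 85.7, 118 and 112 at day 1 and 7.06, 4.37 and 9.21 at 3 weeks. It was 15.3-fold lower at 3 weeks (log2 -3.79, SE 0.31, adjusted p = 7.4e-05). TNC, the matrix protein tenascin C of growing and injured tissue, went from 20.9, 15.9 and 17.4 to 0.783, 0.301 and 0.663. All 3 values at 3 weeks lay under 1, and the fall was 31-fold (log2 -3.6, SE 0.31, adjusted p = 0.000115). AGTR2, the type 2 receptor of angiotensin, which is abundant in fetal mesenchyme, read 15.6, 13.3 and 15.3 at day 1 against 0.6, 0.411 and 0.852 (log2 -3.28, SE 0.14, adjusted p = 5.5e-07). ALDH1A1, an enzyme that makes retinoic acid from retinaldehyde, rose from 2.31, 6.7 and 1.99 to 65.6, 77.7 and 75.4. That was the largest rise among the genes named by size, 19.9-fold (log2 4.12, SE 0.33, adjusted p = 6.99e-05). ITGBL1, a secreted protein related to integrin beta chains, rose 14.3-fold, from 15.9, 18.9 and 10.9 to 273, 220.1 and 162 (log2 3.76, SE 0.27, adjusted p = 4.39e-05). These 5 genes were picked for a large change without overlap, so the gap between their ages follows from that choice. Replicates were not always close, as for ALDH1A1 at day 1 (3.67 ± 2.63, SD, n = 3).

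**Figure D2:**
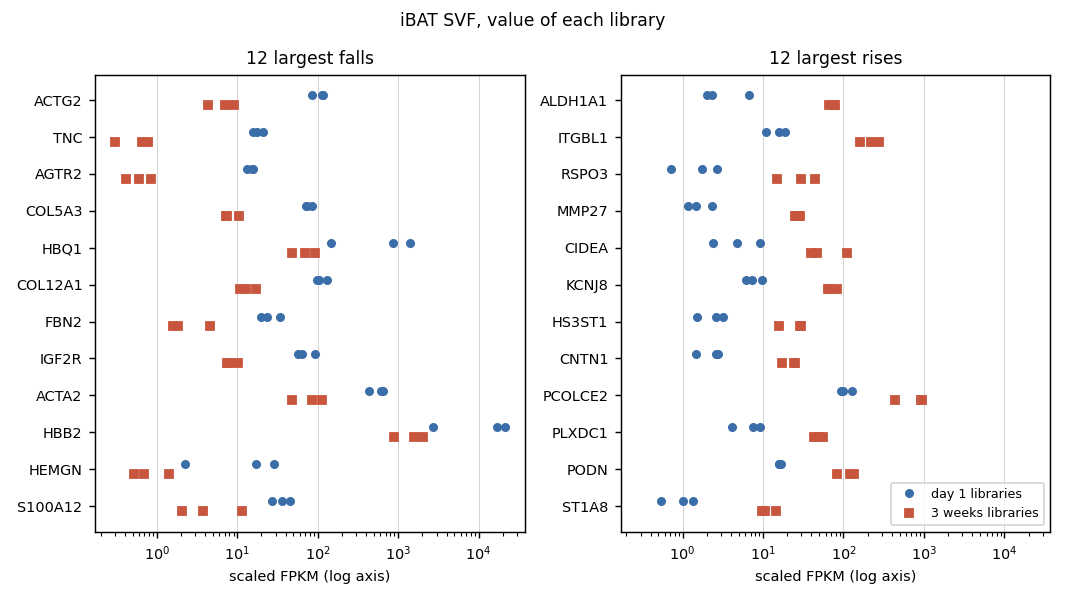
Scaled FPKM of each library (log axis) for the 12 genes with the largest fall and the 12 with the largest rise among called genes with a mean of at least 10 at one age and no overlap. Circles are day 1 libraries and squares 3 weeks libraries. The 3 values of the ages stand well apart for TNC, AGTR2, ALDH1A1 and PODN, while day 1 replicate 2 lies near the 3 weeks libraries for HBQ1, HBB2 and HEMGN.

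Of 24 smooth muscle, pericyte and myofibroblast genes tested, 10 fell, 2 rose and 12 were not called, with a median log2 change of -0.85 against 0.01 for all genes. ACTA2, the alpha actin of smooth muscle and myofibroblasts, was at 439.7, 639.6 and 614 at day 1 and at 85.4, 47.8 and 114 at 3 weeks. Its mean fell from 564 ± 109 to 82.5 ± 33.3 (SD, n = 3), 6.84-fold (log2 -2.83, SE 0.45, adjusted p = 0.00175). MYH11, the smooth muscle myosin heavy chain, fell 4.58-fold, from 37.3, 55.6 and 45.1 to 9.64, 4.34 and 16.1 (log2 -2.23, SE 0.47, adjusted p = 0.00609). TAGLN, an actin-binding protein of the same cells, fell 3.56-fold from 213 ± 9.11 to 59.7 ± 22.5 (adjusted p = 0.0125). The risers were KCNJ8 and RGS5. KCNJ8, the pore of a potassium channel of pericytes, rose 9.34-fold from 6.11, 9.71 and 7.21 to 82, 68.9 and 64.2 (log2 3.08, SE 0.22, adjusted p = 4.6e-05). RGS5, a G-protein regulator that also marks pericytes, had 23.6, 18.5 and 39.9 against 89.6, 55.5 and 133 (adjusted p = 0.0187). The RGS5 call was lost without any one of day 1 replicates 1 and 2 and 3 weeks replicates 1 and 3. The summed level of the 24 genes was 3863 to 6736 at day 1 and 2943 to 3980.4 at 3 weeks, so the sum overlapped between the ages.

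Fibrillar matrix genes split. Of 38 tested, 13 fell and 4 rose, with a median log2 change of -0.13. The fallen genes included COL5A3, COL12A1 and FBN2. COL5A3, a minor chain of type V collagen, fell 9.1-fold from 85.4, 71.6 and 74.2 to 7.21, 7.55 and 10.6 (log2 -3.06, SE 0.25, adjusted p = 7.74e-05). COL12A1, a collagen that sits on the surface of fibrils, fell 8.1-fold from 111 ± 17 to 13.7 ± 3.32 (adjusted p = 0.000143). FBN2, the fibrillin of fetal microfibrils, fell 9.73-fold from 25.7 ± 7.24 to 2.64 ± 1.64 (adjusted p = 0.000182). FBN1, the fibrillin of later life, also fell, 2.57-fold, from 558, 877 and 522 to 286, 306 and 169 (adjusted p = 0.00468). The main collagens were not called. COL1A1 was at 9944, 12858 and 6750.4 at day 1 and at 11167, 13116 and 9129 at 3 weeks (log2 0.21, SE 0.3, adjusted p = 0.629). COL3A1 was at 11665 ± 3771 and 14911 ± 2535 (adjusted p = 0.371). Both overlapped between the ages. The 4 risers were DCN, ASPN, OGN and SPARC. The first 3 are small leucine-rich proteoglycans that bind collagen fibrils, and SPARC is a collagen-binding glycoprotein. SPARC, among the most abundant genes of the fraction, rose 2.37-fold from 5499.6, 7971 and 4859.6 to 15440.0, 15928 and 12119 (log2 1.27, SE 0.3, adjusted p = 0.00966), a call lost with no filter on low FPKM. DCN rose from 1758, 3066 and 2163 to 7153, 6519 and 4644 (adjusted p = 0.0154), which failed the threshold when day 1 replicate 1 or 3 weeks replicate 1 was left out. ASPN and OGN were called at adjusted p = 0.0306 and 0.0316 and lost the call without either of those libraries, among others. The list had 8 falls and 1 rise without day 1 replicate 1, and 9 falls and 1 rise without 3 weeks replicate 1.

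Another proteoglycan of this family, PODN, was among the 12 largest rises. It read 15.7, 16 and 16.9 at day 1 and 121, 137 and 82.4 at 3 weeks, 7.01-fold more (log2 2.7, SE 0.2, adjusted p = 4.81e-05). PCOLCE2, a protein that speeds the trimming of procollagen, rose 7.32-fold from 92.1, 126 and 98 to 944, 924 and 443 (log2 2.79, SE 0.35, adjusted p = 0.000628). MMP27, a matrix metalloproteinase, rose from 1.18, 2.34 and 1.45 to 27.3, 28.4 and 24.7 (adjusted p = 0.000467). Matrix enzymes as a list moved both ways: 7 of 35 rose and 10 fell. SERPINH1, the collagen chaperone of the endoplasmic reticulum, rose from 390.0 ± 95.3 to 739.6 ± 111 (adjusted p = 0.00536), while LOXL1, a crosslinking oxidase of elastic fibres, fell from 92 ± 27.3 to 41.2 ± 7.75 (adjusted p = 0.00749). P4HA3, a collagen prolyl hydroxylase subunit, fell 2.7-fold (adjusted p = 0.00695), and the protease ADAMTS9 fell 3.75-fold (adjusted p = 0.00918). The list held 11 calls without day 1 replicate 3, without 3 weeks replicate 1 or without 3 weeks replicate 3.

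Basement membranes are the sheets under vessels and around fat cells. Their genes moved only downward: 7 of 20 fell (35.0% called, near the 30.1% of all genes), with a median of -0.46. COL18A1, the source of endostatin, fell 4.83-fold from 23.5, 21.2 and 21.1 to 3.37, 3.45 and 6.83 (log2 -2.1, SE 0.43, adjusted p = 0.00571). AGRN, a heparan sulfate proteoglycan, fell 4.05-fold from 5.2 ± 0.217 to 1.28 ± 0.142 (adjusted p = 0.00165). The paired type IV collagen genes COL4A1 and COL4A2 fell 2.85-fold and 2.72-fold (adjusted p = 0.0327 and 0.0353), and both calls were lost without any one of day 1 replicates 1 and 3 and 3 weeks replicates 1 and 2. The list held 3 falls without day 1 replicate 1, and 4 without 3 weeks replicate 1 or 2.

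Genes of fetal growth fell. Of 24 tested on this list, which holds several imprinted genes, 13 fell and none rose, with a median of -0.87. IGF2R, the receptor that clears insulin-like growth factor 2, fell 8.34-fold from 63.8, 93 and 56.2 to 8.02, 10.1 and 7.38 (log2 -2.9, SE 0.19, adjusted p = 3.41e-05). PEG10, an imprinted gene of retrotransposon origin, fell 5.5-fold from 51, 54.8 and 54.4 to 12.8, 7.83 and 8.45 (log2 -2.37, SE 0.26, adjusted p = 0.000344). HMGA1, a chromatin protein of growing tissue, fell from 15.8 ± 2.12 to 3.44 ± 0.983 (adjusted p = 0.0038). PTN, the growth factor pleiotrophin, was at 13.2, 43.4 and 18.4 and then at 6.75, 5 and 4.5 (adjusted p = 0.00373). DLK1, a preadipocyte factor that holds back fat cell formation, was at 658, 826 and 538 against 254, 494 and 314. Its values did not overlap, but it missed the threshold (log2 -0.96, SE 0.36, adjusted p = 0.0651). IGF2 and H19 were not found by symbol and are not analysed here.

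The growth hormone and insulin-like growth factor axis moved both ways, with 7 of 14 genes risen and 3 fallen. GHR, the growth hormone receptor, rose 3.04-fold from 8.72, 11.8 and 10.7 to 37.3, 31.7 and 25.7 (log2 1.51, SE 0.19, adjusted p = 0.000698). The binding proteins IGFBP5 and IGFBP6 rose 2.81-fold and 2.56-fold (adjusted p = 0.0036 and 0.00616). IGF1 itself, the hormone that growth hormone induces, stayed between 34.8 and 45 in all 6 libraries. PAPPA, a protease that frees insulin-like growth factors from a binding protein, fell 6.05-fold from 6.02, 7.15 and 6.27 to 1.02, 1.07 and 1.13 (log2 -1.85, SE 0.17, adjusted p = 0.000157). IGF1R, the main receptor, was 1.77-fold lower (adjusted p = 0.0426), a call lost without any one of the 6 libraries. IGFBP7 was called higher at adjusted p = 0.0414 and was likewise lost without any one library.

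Genes of dividing cells moved only downward. In the cell cycle list 19 of 34 fell, with a median of -0.75, and in the DNA replication list 13 of 33 fell, with a median of -0.52. MKI67, which marks dividing cells, was at 4.95, 6.73 and 5.99 at day 1 and at 0.915, 1.34 and 2.07 at 3 weeks (log2 -1.51, SE 0.34, adjusted p = 0.0082). ANLN, a scaffold of the cleavage furrow, fell 4.23-fold from 2.35, 4.74 and 2.91 to 0.844, 0.672 and 0.852 (adjusted p = 0.00786). Among the subunits of the replicative helicase, MCM4 fell 2.73-fold from 10.1 ± 2.47 to 3.7 ± 0.407 (adjusted p = 0.0059), and MCM2 fell 2.66-fold (adjusted p = 0.00599). TOP2A, which untangles replicated DNA, fell 2.42-fold from 6.12, 7.58 and 6.1 to 1.97, 2.62 and 3.61 (adjusted p = 0.0272). The TOP2A call was lost without any single library but 3 weeks replicate 3. These are low levels, and the cell cycle count moved with the libraries used. It was 31 in a fit of the 6 libraries alone, 25 as deposited and 23 with the replicate block. It was 3, 2 and 5 without day 1 replicate 1, 2 or 3, and 3 and 8 without 3 weeks replicate 1 or 2. DNA replication genes numbered 8, 7 and 8 falls without day 1 replicate 1, 2 or 3. Red cell precursor genes, described below, were also lower at 3 weeks, and their part in the fall of division genes was not tested.

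In the list of transforming growth factor beta (TGF-beta) and bone morphogenetic protein (BMP) genes, 10 of 40 fell and 3 rose (32.5% called, against 30.1% of all genes), with a median of -0.16. CTGF, a matricellular protein induced by TGF-beta and by mechanical load, fell 6.29-fold from 88.9, 103 and 98.6 to 13.3, 15.5 and 17.4 (log2 -2.58, SE 0.28, adjusted p = 0.000338). SMAD7, the feedback inhibitor that the pathway switches on, fell 3.75-fold from 23.1, 11.1 and 13.6 to 4.16, 5.15 and 3.41 (adjusted p = 0.00124). LTBP2, a relative of the proteins that store the ligand, fell from 2.07 ± 0.44 to 0.255 ± 0.184 (adjusted p = 0.00093). The risers were the ligands BMP4 and BMP5 and the inhibitor FST, which binds activin. BMP4 was at 16.5, 22.7 and 19.3 and then at 35.4, 51.6 and 29.6 (log2 0.93, SE 0.22, adjusted p = 0.00953). FST rose 2.25-fold (adjusted p = 0.0304), which failed the threshold when any of day 1 replicates 1 and 3 and 3 weeks replicates 1 and 2 was left out. BMP5 rose from 0.692 ± 0.214 to 1.6 ± 0.452 (adjusted p = 0.0329) and lost the call without day 1 replicate 1 or 3. The list had 7 falls and 1 rise without 3 weeks replicate 2.

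Among WNT pathway genes, 11 of 36 fell and 5 rose. RSPO3, a secreted protein that strengthens WNT signals at the receptor, rose 17.4-fold from 0.725, 2.65 and 1.76 to 44.6, 29.9 and 15 (log2 3.45, SE 0.79, adjusted p = 0.00901). RSPO3 is 1 of the 12 largest rises, picked for no overlap, so the gap between its ages follows from that choice. Its 3 weeks values spread 14.8 (SD) around 29.9. The ligand WNT10B, which restrains fat cell formation, was at 2.92, 7.86 and 3.86 against 12.7, 13.1 and 9.18 (adjusted p = 0.0129) and lost the call without day 1 replicate 1. DKK2, an antagonist of the WNT co-receptors, rose 3.83-fold from 12.6 ± 4.75 to 48.4 ± 10.3 (adjusted p = 0.00135), and APCDD1, a membrane-bound inhibitor, rose 2.12-fold (adjusted p = 0.0117). The receptors FZD8 and FZD2 fell. FZD8 went from 13.5, 14.8 and 14.1 to 5.19, 4.08 and 4.21 (log2 -1.47, SE 0.23, adjusted p = 0.00174), and FZD2 fell 2.27-fold (adjusted p = 0.00229). DKK3, a divergent member of the antagonist family, fell 5.96-fold (adjusted p = 0.00519). ZNRF3, the ligase that removes WNT receptors and that R-spondins block, fell 3.17-fold from 3.86, 4.27 and 3.32 to 1.16, 1.41 and 1.04 (adjusted p = 0.00126). The list held 10 calls without day 1 replicate 1 or without 3 weeks replicate 3, with 4 rises in each case.

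Markers of fibroblast-like progenitors of fat rose more often than they fell: 12 of 33 rose and 2 fell, with a median of 0.3. The summed level of the 34 found was 7619, 10946 and 7676 at day 1 and 15789, 15445 and 11806 at 3 weeks. PDGFRA, the growth factor receptor that marks these cells, rose 2.29-fold from 13.8, 17.9 and 9.27 to 32.4, 36.4 and 25 (log2 1.17, SE 0.25, adjusted p = 0.00728). DPP4, a peptidase on the surface of interstitial progenitors, rose 2.67-fold from 14.3, 17.6 and 14 to 51.8, 43.3 and 27.5 (log2 1.32, SE 0.23, adjusted p = 0.00293). PI16, which marks the same progenitors, had 428, 488 and 199 against 541, 962 and 504. Its values did not overlap, and it was not called (log2 0.89, SE 0.37, adjusted p = 0.0917). VCAM1, an adhesion molecule of more committed cells and of inflamed endothelium, rose 4.75-fold from 3.77, 2.26 and 4.71 to 13.6, 13.8 and 23.6 (adjusted p = 0.00317). The 2 falls were those of FBN1, given above with the matrix genes (log2 -1.36, SE 0.27, adjusted p = 0.00468), and of F3. F3, tissue factor, which marks another progenitor subset, fell from 55.2 ± 8.22 to 27.6 ± 3.67 (adjusted p = 0.00299). The list had 6 rises and 2 falls without 3 weeks replicate 1.

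Fat cell transcripts were present in the fraction at both ages, although a stromal fraction is prepared to leave fat cells out. ADIPOQ, the fat cell hormone adiponectin, was at 290.3, 331 and 589 at day 1 and at 510.1, 541 and 636 at 3 weeks. The ages overlapped, and no change was called (log2 0.54, SE 0.42, adjusted p = 0.347). PPARG, the master regulator of fat cell formation, was at 53.4, 17.9 and 46.3 and then at 52.6, 41 and 53.1 (adjusted p = 0.402). The lowest PPARG value, day 1 replicate 2, was also the library with the lowest summed level of 21 fat cell genes, 2193 against 5904 and 7515 in the other day 1 libraries and 6062 to 9262 at 3 weeks.

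Of 19 fat cell genes tested, 8 rose and 1 fell, with a median of 0.67. CIDEC, which fuses lipid droplets, rose from 1.83, 0.891 and 2.77 to 25.6, 6.79 and 22.6, 10-fold (log2 2.64, SE 0.43, adjusted p = 0.00193). LEP, the hormone leptin that white fat secretes, was at 0.0259, 0 and 0.0447 at day 1 and at 5.37, 2.17 and 2.1 at 3 weeks (log2 1.96, SE 0.35, adjusted p = 0.00311). DGAT2, which makes triglyceride, rose from 9.26, 5.65 and 13.8 to 48.3, 20 and 53.6 (adjusted p = 0.00411). SNCG, the synuclein of fat cells, rose 4-fold from 10.8 ± 2.04 to 43.1 ± 11.2 (adjusted p = 0.000509). GPAM, an early step of triglyceride synthesis, fell from 7.41 ± 0.19 to 5.01 ± 0.968 (adjusted p = 0.0109), a call lost in the fit of 24 SVF libraries. The summed level of fat cell genes overlapped between the ages, and its part in these changes was not tested.

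The brown fat list gave 2 rises and 2 falls among 18 genes, with a median of 0.07, a share of calls (22.2%) under that of all genes. UCP1 was at 19.2, 5.35 and 45.2 at day 1 and at 6.96, 0.531 and 12.1 at 3 weeks. The ages overlapped and no change was called (log2 -1.74, SE 0.75, adjusted p = 0.0995). CIDEA, a lipid droplet protein of brown fat cells, went the other way. It rose 12.1-fold from 4.68, 2.41 and 9.17 to 109.7, 47.3 and 39.7 (log2 3.37, SE 0.4, adjusted p = 0.00049). TBX15, a transcription factor of mesenchyme and of brown fat, was at 17.1, 21.8 and 16.4 against 25.7, 31.9 and 23.3 (adjusted p = 0.0265). PPARGC1B and PRDM16, a co-activator of mitochondrial genes and a regulator of brown fat identity, fell 2.28-fold and 2.29-fold (adjusted p = 0.0211 and 0.0416). Those 3 calls were each lost without several single libraries, and the list held 1 call without day 1 replicate 1, 3 weeks replicate 1 or 3 weeks replicate 2.

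In whole interscapular tissue, measured in a table normalized on its own, the deposited FPKM of UCP1 was 5348 ± 375 at day 1 and 828 ± 140.0 at 3 weeks. In the SVF it was 26.1 ± 22.7 and 6.3 ± 5.52 as deposited. LEP went from 0.963 ± 0.515 to 65.8 ± 15.6 in whole tissue, CIDEC from 159 ± 9.25 to 454 ± 31.9, and CIDEA from 819.6 ± 229 to 1624 ± 663. ALDH1A1 and KCNJ8 went from 15.1 ± 6.19 to 76.6 ± 7.37 and from 3.81 ± 0.365 to 21.5 ± 6.44 in whole tissue. ACTA2 went from 133 ± 31.6 to 27.1 ± 10.6. These whole tissue values were set beside the SVF values and not tested against them.

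Lipid and energy genes did not move as 1 block. Of 13 genes of fatty acid synthesis, 4 rose and 3 fell. MID1IP1, an activator of acetyl-CoA carboxylase, rose from 1.94, 1.99 and 2.21 to 5.53, 5.71 and 6.93 (log2 1.21, SE 0.17, adjusted p = 0.0011), while that enzyme itself, ACACA, fell from 5.05, 4.97 and 4.17 to 3.07, 2.24 and 2.36 (log2 -0.69, SE 0.16, adjusted p = 0.00936). ACSS2, which makes acetyl-CoA from acetate, rose 1.58-fold (adjusted p = 0.0149), a call lost without 3 weeks replicate 3. The list had 4 calls without day 1 replicate 2 or 3 weeks replicate 2, and 3 without 3 weeks replicate 3.

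Fatty acid oxidation gave 5 rises and no fall among 19 genes, with a median of 0.22. That was 26.3% called, under the 30.1% of all genes tested. As deposited, this list had 4 rises and 1 fall, with a median of 0.04. ECI2, an enzyme for unsaturated fatty acids, rose 1.79-fold from 5.93, 6.23 and 5.44 to 9.73, 12 and 9.73 (log2 0.74, SE 0.12, adjusted p = 0.00231). ECHS1, a hydratase of the oxidation cycle, rose 1.64-fold from 16.5 ± 1.35 to 27.1 ± 2.32 (adjusted p = 0.00293). The list had 3 rises without day 1 replicate 2 or without 3 weeks replicate 3. Of 35 respiratory chain genes, 10 rose and none fell (28.6% called, also near the share of all genes), with a median of 0.3. COX4I1, a subunit of cytochrome oxidase, rose 1.59-fold from 146, 142 and 136 to 209.7, 235 and 228 (log2 0.66, SE 0.13, adjusted p = 0.00411). NDUFB5, a subunit of complex I, rose 1.55-fold (adjusted p = 0.0114). This block was small in size and depended on the scaling and on single libraries. As deposited, 3 of 35 rose, with a median of 0.14 against -0.14 for all genes, and 4 to 6 rose without any single library.

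Ribosomal protein genes rose together in a similar way, 25 of 39 with none fallen and a median of 0.52. RPS24 went from 1018, 1381 and 1324 to 2025, 2302 and 2113 (log2 0.8, SE 0.19, adjusted p = 0.0107), and RPS4X from 708 ± 111 to 1220.4 ± 81.1 (adjusted p = 0.00785). As deposited, 11 of 39 rose with a median of 0.35. The count was 14 without day 1 replicate 1 or 3, 9 without 3 weeks replicate 2 and 15 without 3 weeks replicate 3. Ribosomal protein genes have many near-identical pseudogenes, so single values are uncertain.

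Sterol synthesis genes fell. Of 21 tested, 10 fell and 1 rose, with a median of -0.5. SQLE, which oxidizes squalene, fell 2.98-fold from 11.3, 10.7 and 8.98 to 4.27, 3.64 and 2.5 (log2 -1.36, SE 0.23, adjusted p = 0.00222). STARD4, a carrier of cholesterol inside cells, fell 2.82-fold from 8.89, 5.53 and 6.54 to 2.66, 2.07 and 2.7 (adjusted p = 0.00537), and CYP51A1, which demethylates lanosterol, fell 2.06-fold (adjusted p = 0.0047). The single riser was HSD17B7, a ketosteroid reductase of the pathway, at 12.8, 17.9 and 16.4 against 26.1, 30.7 and 25.7 (adjusted p = 0.00393).

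Genes of sugar breakdown and of the response to low oxygen also fell, 13 of 26 with 1 risen and a median of -0.55. EGLN3, an oxygen sensor that low oxygen induces, fell 3.87-fold from 10, 5.23 and 16.1 to 3.03, 2.51 and 2.57 (log2 -1.52, SE 0.29, adjusted p = 0.00389). The lactate exporter SLC16A3 fell from 4.34, 2.1 and 3.18 to 0.427, 0.772 and 0.694 (log2 -1.34, SE 0.23, adjusted p = 0.00236). The glucose transporter SLC2A1 fell from 5.54 ± 1.71 to 1.76 ± 0.357 (adjusted p = 0.00621). VEGFA, the vessel growth factor, fell from 46.8, 53.4 and 57.9 to 29.3, 33.9 and 21 (adjusted p = 0.00822). The riser was ALDOC, an aldolase of brain and of fat, 2.23-fold (adjusted p = 0.00901). Without day 1 replicate 1 the list had 8 falls and 1 rise.

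Of 26 blood vessel lining genes, 5 rose and 2 fell (26.9% called, against 30.1% of all genes), with a median of -0.06. PECAM1, an adhesion protein of all endothelium, was at 163, 92.3 and 182 against 104, 96.9 and 169 and was not called (adjusted p = 0.723). ESM1, a proteoglycan of sprouting endothelium, rose 5.57-fold from 1.67, 1.23 and 2.71 to 6.97, 8.55 and 15.7 (log2 1.95, SE 0.31, adjusted p = 0.00175). PLVAP, which forms the diaphragms of leaky capillaries, rose 3.44-fold from 44, 27.5 and 51.5 to 106, 115 and 203 (log2 1.74, SE 0.42, adjusted p = 0.0111). APLN, a peptide of tip cells, fell from 6.79, 5.69 and 11.3 to 0.488, 1.35 and 2.64 (adjusted p = 0.0378), a call lost without any single library but 3 weeks replicate 3. The list had 4, 3, 3 and 4 calls without day 1 replicate 1, day 1 replicate 3, 3 weeks replicate 1 and 3 weeks replicate 3. Day 1 replicate 2 had the lowest summed level of these genes, 685 against 953 to 1676 in the other 5 libraries.

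Lymph vessel genes moved only downward, 4 of 8 with a median of -0.83. PROX1, the transcription factor that defines lymphatic endothelium, fell 6.61-fold from 4.25, 7.9 and 4.55 to 0.671, 0.551 and 1.3 (log2 -1.81, SE 0.24, adjusted p = 0.000812). RELN, a secreted glycoprotein made by lymphatic endothelium, fell 5.47-fold from 2.99, 4.61 and 4.11 to 0.803, 0.611 and 0.726 (log2 -1.5, SE 0.17, adjusted p = 0.000384). MMRN1 and TBX1 were called near the threshold (adjusted p = 0.0389 and 0.05, the latter just under it before rounding). The MMRN1 call was lost without any one library and that of TBX1 without any but 3 weeks replicate 3. The list held 1 fall without any one of the day 1 libraries and 2 without 3 weeks replicate 1 or 2, and 2 with the replicate number as a block.

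Nerve sheath genes fell in 5 of 18, with no rise and a median of -0.3. That was 27.8% called, under the 30.1% of all genes tested. The summed level of the 20 found was 459, 581 and 955 at day 1 and 435, 625 and 659.6 at 3 weeks, so the sum overlapped between the ages. NGFR, the nerve growth factor receptor of immature Schwann cells, fell 5.44-fold from 8.47, 9.29 and 12.4 to 1.73, 2.17 and 1.65 (log2 -1.94, SE 0.18, adjusted p = 0.000157). SOX10, the transcription factor that defines these cells, fell 3.64-fold from 5.37, 4.98 and 8.26 to 1.36, 1.4 and 2.35 (log2 -1.41, SE 0.31, adjusted p = 0.00786). L1CAM and ERBB3, an adhesion molecule and a neuregulin receptor of the lineage, fell 2.57-fold and 2.42-fold (adjusted p = 0.00785 and 0.0121).

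Genes of red blood cell precursors fell, 9 of 15 with none risen and a median of -2.05. The haemoglobin gene HBB2 was at 16935, 2717 and 21349 at day 1 and at 1564, 884 and 2056 at 3 weeks, 9.1-fold lower (log2 -2.81, SE 0.74, adjusted p = 0.0165). HBQ1 and HBZ, further globin genes, fell 11.5-fold and 7.84-fold (adjusted p = 0.00812 and 0.00863). HBQ1 is not on this list and is not part of its count. HEMGN, a nuclear protein of erythroid precursors, was at 17.3, 2.27 and 28.3 against 1.4, 0.521 and 0.684 (adjusted p = 0.00722). ALAS2, the first enzyme of haem synthesis in red cells, was at 269, 45.6 and 444 against 30.7, 14.9 and 54.5 (adjusted p = 0.0206). Day 1 replicate 2 was the lowest day 1 library for each of these 5 genes, and for ALAS2 it lay within the range of 3 weeks. The globin genes HBB2, HBZ and HBQ1 took 5.06%, 0.84% and 6.1% of the deposited FPKM at day 1 and 0.224% to 0.452% at 3 weeks. The HBB2 call needed each of 3 libraries, day 1 replicates 1 and 3 and 3 weeks replicate 2, and that of ALAS2 needed day 1 replicates 1 and 3 and 3 weeks replicates 1 and 2. Leaving out these 3 in turn gave the list 4, 5 and 5 falls (day 1 replicates 1 and 3, then 3 weeks replicate 2).

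Granulocyte genes fell likewise, 8 of 12 with none risen and a median of -1.71. HDC, which makes histamine in mast cells and basophils, fell 10.6-fold from 7.33, 5.77 and 7.62 to 0.875, 0.591 and 0.494 (log2 -2.26, SE 0.14, adjusted p = 2e-05). HPGDS, a prostaglandin D synthase of mast cells, was at 2.6, 2.52 and 4.14 at day 1 and at 0.142, 0.0802 and 0 at 3 weeks (log2 -1.91, SE 0.16, adjusted p = 7.83e-05). It is counted among the arachidonic acid mediators below and not in the granulocyte list. The neutrophil genes S100A8, S100A9 and S100A12 fell 5.34-fold, 3.6-fold and 6.36-fold with adjusted p of 0.0487, 0.0436 and 0.044. Each of those 3 calls was lost without any of at least 5 single libraries, and with the replicate number as a block. The list had 1, 3 and 1 falls without day 1 replicate 1, 2 or 3, and 4 without 3 weeks replicate 1 or 3.

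Among macrophage genes 4 of 26 rose and 4 fell, with a median of 0.06 (-0.11 as deposited). That was 30.8% called, near the 30.1% of all genes tested. The receptor CSF1R was at 38.6, 35.8 and 30.1 against 25.8, 29.8 and 19.9 (adjusted p = 0.17), and the lysosomal marker CD68 stayed between 22.9 and 25.3. CD163, the scavenger receptor for haemoglobin, fell 5.75-fold from 69.3, 51.3 and 67 to 13.3, 10.8 and 8.55 (log2 -2.43, SE 0.31, adjusted p = 0.000738). MRC1, the mannose receptor, fell 2.76-fold from 72.6, 78.2 and 83.5 to 36.6, 27 and 21.2 (log2 -1.47, SE 0.31, adjusted p = 0.00603). SPP1, osteopontin, fell 3.69-fold (adjusted p = 0.0126), and SLC11A1, an iron transporter of the phagosome, fell 3.41-fold (adjusted p = 0.0116), the latter not in the fit of 24 SVF libraries. LGALS3, galectin 3, rose 3.26-fold from 69.8, 67.5 and 70.3 to 222, 273 and 182 (log2 1.67, SE 0.31, adjusted p = 0.00372). Lysozyme (LYZ), the protease CTSS and the actin-binding protein AIF1 rose 2.92-fold, 2.27-fold and 2.37-fold (adjusted p = 0.00681, 0.00325 and 0.00839).

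All 5 tested genes of antigen presentation by MHC class II rose, with a median of 1.71. RLA-DR-ALPHA, the alpha chain of the rabbit DR molecule, rose 5.12-fold from 35.7, 26.1 and 50.7 to 190.1, 247 and 139 (log2 2.34, SE 0.34, adjusted p = 0.00109). CD74, the chain that chaperones these molecules, rose 3.32-fold from 80.4, 60.4 and 88.6 to 248, 316 and 196 (log2 1.71, SE 0.31, adjusted p = 0.00334). RLA-DMA and RLA-DMB, which load peptides onto them, rose 6.42-fold and 3.09-fold (adjusted p = 0.0012 and 0.0017). All 5 were called without any single library and under every other alternative. B2M, the light chain of MHC class I, rose 2-fold from 393 ± 103 to 787 ± 105 (adjusted p = 0.00531). The interferon response, which also induces MHC genes, held 2 rises and 1 fall among 30 genes, a share of calls (10.0%) under that of all genes, and 1 rise without 3 weeks replicate 2 or 3.

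Lymphocyte markers were sparse. Of 32 T and natural killer cell genes found, 21 stayed under 1 in all 6 libraries and 7 were tested, with 1 rise and 2 falls. CD3E, part of the T cell receptor complex, was at 0.622 ± 0.142 and 0.619 ± 0.0923 and was not tested. IL7R, the receptor of interleukin 7, fell from 1.63, 1.35 and 2.67 to 0.641, 0.471 and 0.578 (log2 -0.86, SE 0.26, adjusted p = 0.0306). That call was lost without any one 3 weeks library (adjusted p = 0.0628 to 0.0841), in the fit of 24 SVF libraries (0.0534) and with the replicate block (0.0518). CCL5, a chemokine of T cells, was at 3.32, 0.968 and 2.29 against 7.87, 9.27 and 5.14 (adjusted p = 0.0178). Of 8 B and plasma cell genes tested, 2 rose: JCHAIN, which joins IgM and IgA units, 5.33-fold (log2 1.85, SE 0.42, adjusted p = 0.00848), and IRF4, 2.67-fold (adjusted p = 0.0204). The defining B cell gene MS4A1 lay between 0.796 and 1.22 throughout. None of 8 dendritic cell genes was called by limma here, while 2 were in a fit of the 6 libraries alone and 1 each in the fit of 24 libraries and with the replicate block. Their highest members, TCF4 and CD83, had adjusted p of 0.927 and 0.0837. Without day 1 replicate 2, or 3 weeks replicate 1 or 2, the T cell list held 1 fall alone, and the B cell list held 1 rise without day 1 replicate 1 or 3 weeks replicate 1 or 2.

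Secreted inflammatory signals gave 3 rises and 5 falls among 26 genes, or 30.8% called, near the 30.1% of all genes. IL18, an inflammasome cytokine, rose 3.82-fold from 33.8, 48.2 and 33.6 to 160.2, 155 and 127 (log2 1.92, SE 0.24, adjusted p = 0.000635). IL34, a ligand of CSF1R, rose 2.2-fold (adjusted p = 0.00445). LIF, a cytokine of the interleukin 6 family, fell 6-fold from 15.4, 22.1 and 15.2 to 2.55, 4.16 and 2.06 (log2 -2.26, SE 0.24, adjusted p = 0.000289). TNF fell 3.69-fold from 25, 28.5 and 28.4 to 7.03, 6.99 and 8.19 (log2 -1.75, SE 0.22, adjusted p = 0.000647), and OSM, another cytokine of the interleukin 6 family, fell 4.62-fold (adjusted p = 0.000256). Of 18 complement genes, 4 rose and 1 fell (27.8% called, also near that share). CFI and SERPING1, inhibitors of the cascade, rose 3.74-fold and 2.3-fold (adjusted p = 0.00088 and 0.00503), and C3AR1, a receptor for a complement fragment, fell 5.69-fold (adjusted p = 0.00103). The complement list held 3 calls when day 1 replicate 1 or 3, or 3 weeks replicate 2, was left out.

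Skeletal muscle genes had no call among 15 tested, with a wide spread. ACTA1, the actin of muscle fibres, was at 715, 902 and 11.2 at day 1 and at 205, 144 and 269 at 3 weeks (log2 0.01, SE 1.95, adjusted p = 0.997). The summed level of 28 muscle genes was 1711, 2183 and 37.0 at day 1 and 409.5 to 677.0 at 3 weeks, so day 1 replicate 3 held the least and the other day 1 libraries the most. Without day 1 replicate 3, 5 muscle genes were called lower at 3 weeks. Of 10 lining cell genes found, 9 stayed under 1 in all 6 libraries. The one tested was the keratin KRT8, which fell from 2.99 ± 0.55 to 0.346 ± 0.29 (adjusted p = 0.00033). Without any one of the day 1 libraries it failed the filter on low FPKM.

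The body clock genes moved in both directions. Of 16 tested, 5 rose and 4 fell. ARNTL (BMAL1) and NPAS2, which with CLOCK form the activating arm of the clock, fell. ARNTL went from 9.89, 7.58 and 7.79 to 1.77, 0.571 and 0.789, 8.07-fold lower (log2 -2.24, SE 0.44, adjusted p = 0.00446). NPAS2 went from 12.4, 6.55 and 4.84 to 1.24, 1.31 and 0.873 (log2 -1.97, SE 0.28, adjusted p = 0.00103), and CLOCK fell 1.94-fold from 8.8 ± 0.775 to 4.54 ± 0.596 (adjusted p = 0.00182). The repressors NR1D1 and NR1D2, which act on ARNTL, rose, NR1D2 from 8.81, 18.8 and 19.4 to 44.3, 51.2 and 42.9 (log2 1.57, SE 0.25, adjusted p = 0.00182) and NR1D1 from 2.72, 5.63 and 5.26 to 7.89, 14.6 and 12.9 (adjusted p = 0.00851). The output factors TEF and HLF rose 3.92-fold and 3.84-fold (adjusted p = 0.00207 and 0.00151). The labels give no hour of sampling, and the hour and the age cannot be told apart.

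**Figure D3:**
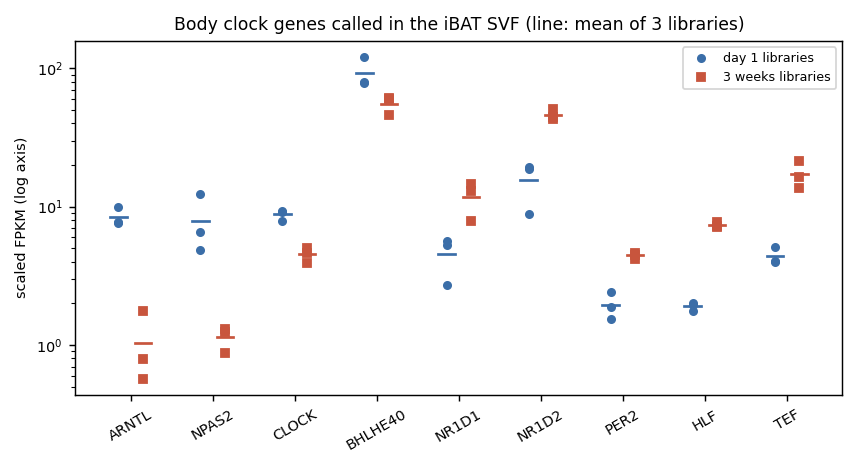
Scaled FPKM (log axis) of the 9 called body clock genes in each iBAT SVF library, with circles for day 1, squares for 3 weeks and a line at the mean of 3 libraries. ARNTL, NPAS2 and CLOCK lay lower at 3 weeks in every library, and NR1D1, NR1D2, PER2, HLF and TEF higher.

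Genes that respond within minutes to handling or tissue dissociation also split, with 5 of 29 risen and 9 fallen. JUN rose 2.37-fold from 302, 247 and 306 to 671, 683 and 673 (log2 1.25, SE 0.15, adjusted p = 0.00058), and FOS rose 2.14-fold from 518, 496 and 561 to 1071, 1120.1 and 1185 (log2 1.1, SE 0.16, adjusted p = 0.00103). These subunits of the AP-1 factor were tight between replicates. The nuclear receptors NR4A2 and NR4A3 fell 2.86-fold and 3.45-fold (adjusted p = 0.000541 and 0.000691), and EGR3 fell 2.55-fold (adjusted p = 0.00152). The list held 9 calls without day 1 replicate 2 or 3 weeks replicate 3. Genes known to follow glucocorticoids gave 3 rises and 2 falls among 14 (35.7% called, near the 30.1% of all genes). TSC22D3 rose 2.06-fold from 64.3, 45.5 and 48.4 to 121, 102 and 102 (log2 1.04, SE 0.17, adjusted p = 0.00177), while FKBP5, an equally classical target, fell 3.4-fold from 23.4, 10 and 14.1 to 5.6, 4.17 and 4.21 (log2 -1.51, SE 0.26, adjusted p = 0.00267). NR3C1, the receptor itself, rose 1.57-fold (adjusted p = 0.00444). Heat shock genes gave 2 rises and 2 falls among 18, a share of calls (22.2%) under that of all genes, and the chaperone HSPD1 fell 1.93-fold (adjusted p = 0.00728). That list held 1 or 2 calls without any single library.

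Of 19 genes of vitamin A handling, 4 rose and 1 fell, with a median of 0.01. That was 26.3% called, under the 30.1% of all genes tested. Beside the rise of ALDH1A1, which makes retinoic acid, CYP26B1, which breaks it down, fell 4.5-fold from 11.9, 6.51 and 9.89 to 2.39, 1.76 and 2.15 (log2 -1.72, SE 0.31, adjusted p = 0.00328). RARG, a receptor for retinoic acid, rose 1.82-fold from 11.5 ± 1.72 to 20.9 ± 1.76 (adjusted p = 0.00616), and RARRES1, named for its response to retinoids, rose 3.98-fold from 3.8 ± 0.607 to 15.2 ± 3.13 (adjusted p = 0.00142). In the list of arachidonic acid mediators, 2 of 19 rose and 2 fell (21.1% called, against 30.1% of all genes). ALOX5AP, needed for leukotriene synthesis, rose 2.17-fold from 16.6 ± 1.87 to 36 ± 4.05 (adjusted p = 0.0108), and one of the falls was that of HPGDS, given above. This list held 1 call without day 1 replicate 1 and 2 without 3 weeks replicate 1 or 2.

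The levels at 6 and 12 weeks are given beside these changes as means over 3 libraries, since they come from the same fit. No test was made between them and day 1, whose libraries would be shared with the comparison above. TNC, at 0.582 ± 0.251 at 3 weeks, was at 1.66 ± 1.55 and 0.552 ± 0.0777 at 6 and 12 weeks. ALDH1A1, at 72.9 ± 6.46, was at 76.8 ± 30 and 120.0 ± 15.2. ITGBL1, at 218 ± 55.5, was at 225 ± 52.9 and 263 ± 58.5. COL5A3 was at 8.47 ± 1.89 at 3 weeks, 60.1 ± 20.7 at 6 weeks and 14.7 ± 3.86 at 12 weeks. CIDEA, at 65.6 ± 38.4, was at 5.68 ± 1.25 and then 52.4 ± 4.62, and CIDEC, at 18.3 ± 10.1, was at 2.92 ± 1.57 and 14.8 ± 0.928. HBB2, at 1501 ± 589, was at 188 ± 147 and 6308 ± 1322. NR1D1, at 11.8 ± 3.49, was at 43.7 ± 7.75 and 48.8 ± 12.4. For TNC, COL5A3, CIDEA, CIDEC and HBB2 the 6 weeks mean lay outside the range between the 3 and 12 weeks means. For TNC the SD at 6 weeks, 1.55, was near the mean of 1.66. For ALDH1A1, ITGBL1 and NR1D1 the 6 weeks mean lay inside that range. Other genes named above also had a 6 weeks mean outside it, among them ACTA2, IGF2R, KCNJ8, RSPO3 and CD163.

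**Figure D4:**
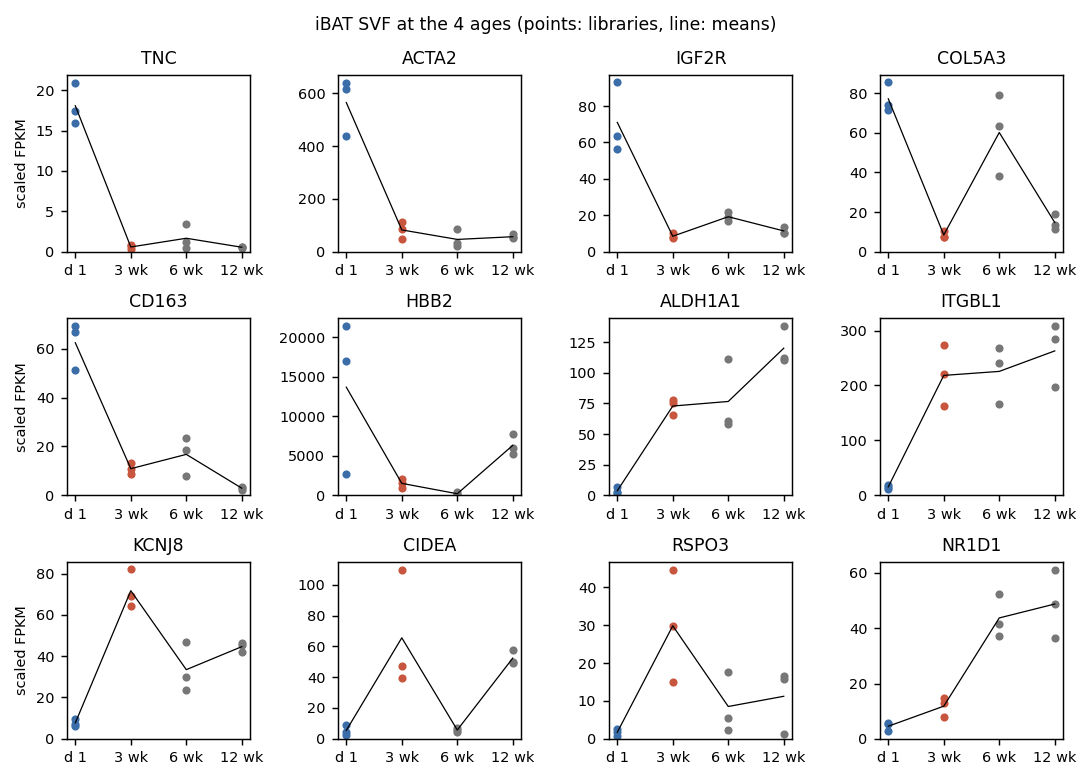
Scaled FPKM of 12 genes in each iBAT SVF library at day 1 and at 3, 6 and 12 weeks (linear axes from 0), with points for libraries and a line through the means. COL5A3 had 8.47 ± 1.89 at 3 weeks and 60.1 ± 20.7 at 6 weeks, and CIDEA had 65.6 ± 38.4 and 5.68 ± 1.25.

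The change was then set against that of the sBAT SVF in a fit of all 24 SVF libraries. There 2713 of 12503 genes (21.7%) were called between the ages in the iBAT SVF and 4214 (33.7%) in the sBAT SVF. Both called 1899 genes in the same direction, 70% of the iBAT and 45.1% of the sBAT calls, and 10 in opposite directions. The difference of the changes was called for 31 genes (0.248%), with the iBAT change the higher in 17 and the lower in 14, and 1466 genes reached an unadjusted p under 0.05. The sBAT SVF libraries of 3 weeks had 63.9% to 80.4% of their FPKM in ADORA1 and LOC100009266, and fewer genes above 0 (12416 to 13888). The count depended on single libraries and on the scaling. It was 6 to 336 without any one of the 12 libraries, with the highest count without sBAT SVF 3 weeks replicate 3, and 5845 as deposited. A missing call therefore does not show that the depots changed alike.

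**Figure D5:**
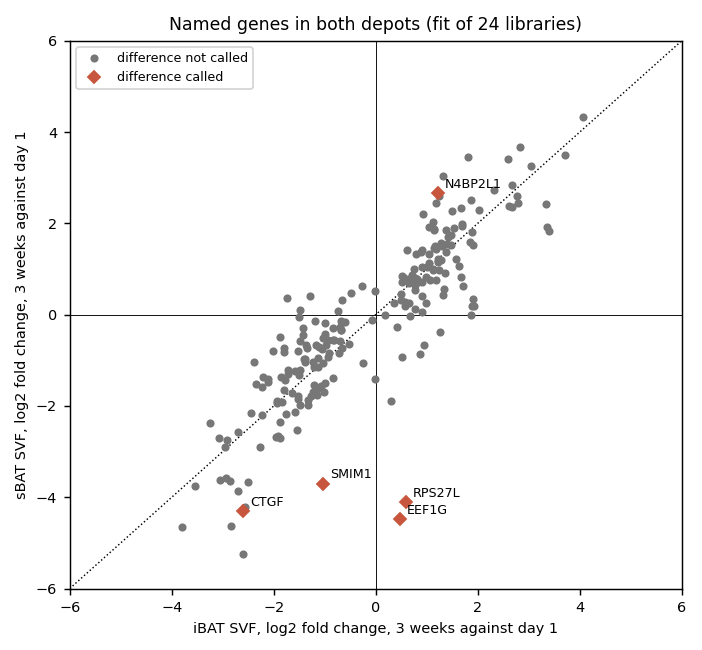
Log2 fold change from day 1 to 3 weeks of 221 named genes in the iBAT SVF (x axis) and in the sBAT SVF (y axis), both from the fit of 24 libraries, with the dotted line at equal change. Diamonds mark 5 named genes whose difference was called, among them N4BP2L1, which rose in both depots and more in the sBAT SVF.

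N4BP2L1 rose in both, less in the iBAT SVF, where it went from 2.16, 2.43 and 3.26 to 7.88, 7.68 and 7.27. Its log2 change in the sBAT SVF was 2.66, and the difference was -1.44 (adjusted p = 0.0442). CTGF and SMIM1 fell in both, by less in the iBAT SVF, with differences of 1.7 (adjusted p = 0.05, just under the threshold before rounding) and 2.66 (adjusted p = 0.00241). In the sBAT SVF, SMIM1 was at 12.1 ± 2 at day 1 and at 0 ± 0 at 3 weeks. Its difference thus rests on readings of 0 in libraries with fewer genes above 0, and whether transcripts were missed there was not tested. SMIM1, a small membrane protein of red cells that carries the Vel blood group, was at 6.91, 2.37 and 3.96 and then at 1.3, 1.48 and 1.63 in the iBAT SVF (adjusted p = 0.0224), which failed the threshold when any of day 1 replicates 1 and 3 and 3 weeks replicates 1 and 2 was left out. LEP had a log2 change of 0.19 in the sBAT SVF (adjusted p = 0.68), but its difference from the iBAT SVF was not called (1.68, adjusted p = 0.139). Of the sterol genes, 10 fell in the iBAT SVF in the main fit of 12 libraries. In the sBAT SVF, in the fit of 24 libraries, 1 fell and 5 rose. With 24 libraries the iBAT SVF had 10 calls on this list, rises and falls together, against 11 in the main fit. None of the 21 passed the test of the difference. For CYP51A1 the difference was -0.81 (adjusted p = 0.21) and for STARD4 -1.06 (adjusted p = 0.212).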

How the data were processed

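The deposited values were FPKM, per the file headers, computed by the authors for each library without pooling replicates. The submitters' processing notes list HISAT2 2.0.4, Bowtie2 2.2.5, DESeq2 and the genome build OryCun2.0. Their roles, the quantification tool and the annotation are not given in the sources used here. All 36 value columns of 2 tables were mapped to samples by name. FPKM is not a count, so no count test was run. Since a library's FPKM share a total, a few dominant genes lower all others, and median ratio factors over the 12 iBAT SVF libraries were applied.

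limma 3.58.1 in R 4.3.3 was fitted to log2(scaled FPKM + 1) with a variance trend and 1 mean per age (12 libraries, 4 ages), two-sided, with Benjamini-Hochberg adjustment over 11865 genes. The difference between depots was an interaction term in a fit of all 24 SVF libraries. On simulated data the fit recovered 74 of 100 genes changed by 1 (log2) and 97 of 100 changed by 2, with 10 false calls. The 200 changed genes, of 11865, were all drawn from above a floor of day 1 level, so recovery of low genes was not measured. The noise was normal and independent between genes, and the scaling step was not simulated. These figures therefore do not cover errors of scaling. The replicate numbers were not used as pairs: deviations of same-numbered libraries correlated at -0.15, 0.22 and 0.13.

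A RefSeq gene table, used for names only, matched 85.9% of identifiers. The text names the 12 largest rises and falls (mean of at least 10, no overlap), up to 4 called members a direction from 41 gene lists, 22 fixed genes, and up to 4 interaction genes a direction. A few other list members (IGF1, CD68, MS4A1 and PER2) were added after their values were seen. The comparison, lists and members were chosen with earlier results of these data known. Alternatives were other pseudocounts, filters, scalings, library sets, no trend, a replicate block and leaving out each library. The single-cell samples were not analysed here, and a few genes that the rule names are not reported here. The depth of the FPKM is unknown, so no counting interval is given.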

Additional observations from a re-analysis of the deposited data

Results flagged for a closer look

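The change from day 1 to 3 weeks differed between the iBAT SVF and the sBAT SVF for 5 named genes, by the interaction term of limma. The log2 difference (iBAT change minus sBAT change) was 2.66 for SMIM1, 1.7 for CTGF and -1.44 for N4BP2L1. It was 4.95 for the EEF1G identifier tested and 4.71 for RPS27L, both with near-identical copies elsewhere in mammalian genomes, so their values are uncertain. In the iBAT SVF neither of these was called (EEF1G 78.9, 76.7 and 55.2 against 70.9, 129 and 105, adjusted p = 0.175, and RPS27L adjusted p = 0.358). In the sBAT SVF their log2 changes were -4.48 (adjusted p = 2.26e-05) and -4.11 (adjusted p = 7.65e-06). EEF1G went there from 51.2 ± 19 to 3.27 ± 5.66, and RPS27L from 17.2 ± 7.49 to 0 ± 0. SMIM1 also read 0 ± 0 in the sBAT SVF at 3 weeks. The 3 weeks libraries of the sBAT SVF are those with 63.9% to 80.4% of their FPKM in ADORA1 and LOC100009266, and the part of this in the differences was not tested.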

How the results depend on the processing

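The count of 3575 genes stayed within 1.5 times of itself under the 10 alternatives that kept all 6 libraries compared. It ranged there from 2634 of 7721 genes tested (filter at 5 FPKM) to 3896 of 19482 (no filter), against 3575 of 11865. Without single libraries it was 2284 to 2992. With the replicate number as a block it was 3304 (1638 higher and 1666 lower), and the labels do not say whether the numbers pair the ages. In the data, 2 of 3 day 1 libraries correlated best with their own number, too few to show whether the numbers pair. The count of 31 for the difference between depots was 5845 as deposited (5827 higher), 51 with a pseudocount of 0.1, 6 with the 12 libraries compared alone, 4 with the replicate block, and 6 to 336 without single libraries. The cause was not tested. Of 200 named genes called, 142 were called in every alternative that tested them, 54 lost the call without at least 1 single library and 37 in another alternative. For 29 of 40 lists the count of calls moved by over 1.5 times in some alternative. The sign turned only in genes that were not called. Without single libraries TCF4 ranged from -0.24 to 0.09, ACTA1 from -2.0 to 1.1, MYL1 from -2.29 to 1.75, PPARG from -0.03 to 0.73 and COL1A1 from -0.04 to 0.43. ACTA1 was also at -0.16 as deposited, -0.07 without the dominant pair and -0.02 in the fit of 24 libraries. With 3 libraries an age and unknown depth, changes of 1 (log2) or less can be missed, and falls of genes near 1 FPKM are understated.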

Other observations

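Several genes with large rises belong to none of the gene lists. HS3ST1, which adds sulfate to heparan sulfate chains, was at 3.18, 2.63 and 1.52 at day 1 and at 30, 28.5 and 15.6 at 3 weeks (log2 2.88, SE 0.46, adjusted p = 0.00176). CNTN1, a cell adhesion protein best known from neurons, rose 9.75-fold from 2.73, 2.63 and 1.48 to 25.1, 24.2 and 17.3 (adjusted p = 0.000157). PLXDC1, a membrane protein first described in tumour vessels, rose 7.15-fold from 9.14, 7.5 and 4.14 to 56.1, 49.9 and 42.6 (adjusted p = 0.000628). ST1A8, a sulfotransferase by its symbol, rose from 0.962 ± 0.395 to 11.6 ± 2.68 (adjusted p = 0.000928). These 4 genes were called without any single library and had log2 changes of 2.39 to 3.68 in the sBAT SVF. The differences between depots were not called.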
